A study of Mus musculus with 2 samples.

Results

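Frizzled genes encode the cell-surface receptors of secreted Wnt proteins, and the 10 mouse members, Fzd1 to Fzd10, were followed here in embryonic stem cells (ESCs). The members were taken by symbol from a gene table of 24532 rows, and all 10 were found. RNA-seq profiles of E14 ESCs, an established mouse line labelled WT, were set against those of E14-Sox2TA/WT cells. In the latter, 1 allele of the transcription factor Sox2 carries the T258A change, made with CRISPR/Cas9, which replaces threonine 258, a residue that can carry the sugar O-GlcNAc, by alanine. Each genotype had 1 library, and the sources used here do not say how many clones the E14-Sox2TA/WT library came from. The study's methods state that the parental E14 cells were kept in serum-containing medium with LIF, the cytokine leukemia inhibitory factor. E14-Sox2TA/WT cells were grown out from individual sorted cells and kept in the same medium with 2i, the Mek inhibitor PD0325901 and the Gsk3 inhibitor CHIR99021, and were used some passages after 2i had been removed. Genotype, clonal origin and culture history therefore cannot be told apart, and no difference below has a replicate check.

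A Frizzled protein spans the membrane as a bundle of helices, like a G protein-coupled receptor, and binds Wnt through a cysteine-rich domain outside the cell. With the co-receptor Lrp5 or Lrp6 it recruits Dishevelled, which stops the destruction of β-catenin and lets β-catenin act with Tcf and Lef factors on target genes, whereas other Frizzled signals orient cells in the plane of a tissue or steer growing axons. In mouse ESCs, active Wnt signaling favours self-renewal, and an inhibitor of Gsk3, the kinase that marks β-catenin for destruction, acts downstream of the receptors. By sequence the family falls into Fzd1, Fzd2 and Fzd7, then Fzd5 and Fzd8, then Fzd4, Fzd9 and Fzd10, and last Fzd3 and Fzd6, and the results are ordered by these subfamilies.

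Most members are compact genes. In the GENCODE annotation of GRCm38 (mm10), Fzd1, Fzd2, Fzd7, Fzd8, Fzd9 and Fzd10 have 1 exon, Fzd4 and Fzd5 have 2, and Fzd3 and Fzd6 have 7. Fzd2 lies at chr11:102604396-102608058 on the plus strand, and Fzd7 lies at chr1:59482424-59486955, also on the plus strand. Fzd5 lies on the same chromosome as Fzd7, at chr1:64730558-64737751 on the minus strand, with its coding sequence in 1 of its exons. Fzd1 (chr5:4753839-4758035, minus strand), Fzd9 (chr5:135248938-135251230, minus strand) and Fzd10 (chr5:128600844-128604093, plus strand) share chromosome 5 but are far apart on it. The other members with a printed position are Fzd3 (chr14:65192449-65262463, minus strand), Fzd4 (chr7:89404355-89413134, plus strand) and Fzd6 (chr15:39006034-39038188, plus strand). The Fzd3 transcript is 12734 bases long, of which 10273 are 3′ untranslated region, and has the lowest GC content of the family (40.3%), whereas Fzd9 has the highest (62.2%).

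Paralogs this close could exchange reads, so their coding sequences were aligned. Identity over the 45 pairs ran from 58.9% (Fzd3 and Fzd9) to 82.0% (Fzd1 and Fzd2), with a median of 64.6%. Fzd2 and Fzd7 shared 78.6% of their coding bases, Fzd5 and Fzd8 shared 76.3%, and Fzd9 and Fzd10 shared 71.6%. Across all pairs the longest identical run was 47 bases, found within exons of Fzd1 and Fzd2 and of Fzd1 and Fzd7. The runs are printed because a read lying wholly inside one has no unique gene of origin. The run shared by Fzd1 (chr5:4756331-4756377, minus strand) and Fzd2 (chr11:102605740-102605786, plus strand) and the run shared by Fzd1 (chr5:4756964-4757010, minus strand) and Fzd7 (chr1:59483344-59483390, plus strand) are, from 5′ to 3′:
Fzd1 and Fzd2: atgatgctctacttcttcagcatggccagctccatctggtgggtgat
Fzd1 and Fzd7: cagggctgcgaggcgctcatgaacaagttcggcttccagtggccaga

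The pair on which the comparison turns, Fzd2 and Fzd7, has a longest identical run of 38 bases, in the coding exon of Fzd2 at chr11:102606064-102606101 and of Fzd7 at chr1:59484298-59484335. The aligned stretch of Fzd1 (chr5:4756016-4756053, minus strand) differs from it at 1 base and that of Fzd5 (chr1:64735282-64735319, minus strand) at 8 bases. In the lines below, capitals mark bases that differ from Fzd2.
Fzd2 and Fzd7: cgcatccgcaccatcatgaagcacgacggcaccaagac
Fzd1: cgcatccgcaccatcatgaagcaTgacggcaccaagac
Fzd5: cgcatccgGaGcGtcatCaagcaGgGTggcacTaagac
No pair shared a run of 50 bases or more. Read length and the handling of reads with several matches are not given in the sources used here, so sharing of reads between members was not tested.

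**Figure D1:**
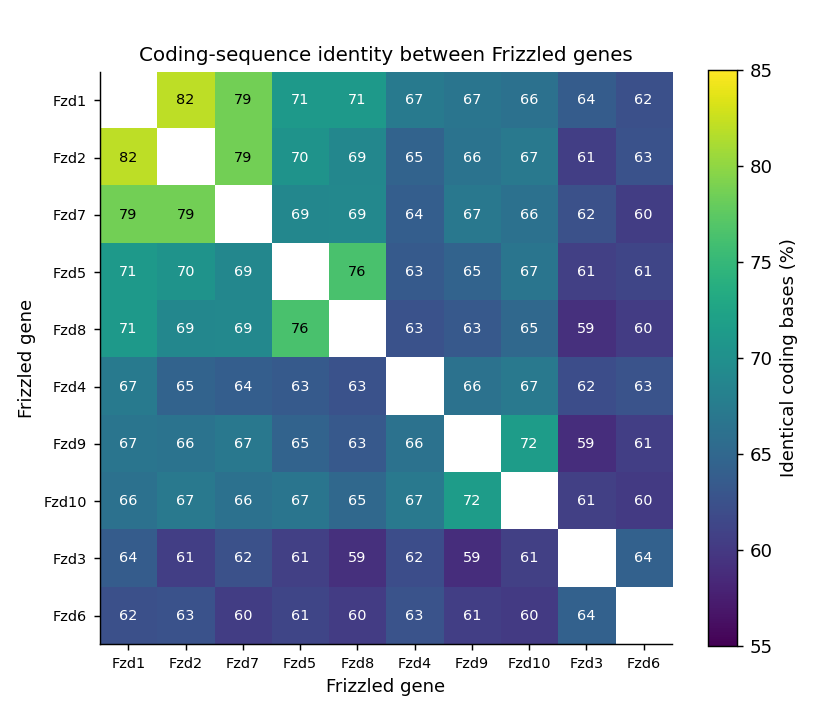
Percentage of identical coding bases for each pair of Frizzled genes, from global alignments of the GRCm38 coding sequences, with genes on both axes and the percentage printed and coloured in each cell. The Fzd1, Fzd2 and Fzd7 block holds the highest values, up to 82.0%, followed by Fzd5 with Fzd8 at 76.3% and Fzd9 with Fzd10 at 71.6%.

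The E14 library held 60263536 reads and the E14-Sox2TA/WT library 44609228 reads. Levels between genes are given as TPM, which is scaled to transcript length, and each fold carries a 95% interval from the read counts that covers counting error only. Over the 13269 genes whose TPM averaged 1 or more, here called expressed, the log2 ratio had a median of 0.04. Scaling to the library total moved the median of all genes by -0.14, and the ratios of the members moved with it. Sox2 itself had a TPM of 372.5 in E14 and 274.2 in E14-Sox2TA/WT cells (log2 ratio -0.44), which does not check the label, since gene counts do not show a base change. All 7 ESC markers, among them Pou5f1 and Nanog, were abundant in both libraries, with TPM from 251.3 to 6877, but not at equal levels. Of the 7, 3 were higher and 4 lower in E14-Sox2TA/WT cells. Nanog, the lowest by ratio, had a TPM of 526.9 in E14 and 251.3 in E14-Sox2TA/WT cells (log2 ratio -1.07). Utf1 was the highest by ratio (0.24), and Pou5f1 differed little (0.03). The summed TPM of the list was 10953 and 8158, most of it Dppa5a, with 6877 and 4429 (-0.63).

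The summed TPM of the family was 108.7 in E14 and 166.3 in E14-Sox2TA/WT cells. This is a 1.53-fold higher total (1.497 to 1.56), a log2 ratio of 0.61, and it came from 16666 and 17723 reads. Part of the family carried it. Fzd2, Fzd5, Fzd7 and Fzd8 were 1.63-fold to 2.02-fold higher, Fzd3 and Fzd6 were higher by less than 1.5-fold, and the counting intervals of Fzd9 and Fzd10 included no change. Fzd1 and Fzd4 were lower. In bulk RNA, more cells that express a receptor and more of its RNA per cell cannot be told apart.

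In E14 cells the order of levels was led by Fzd5 and Fzd7, whose TPM differed by less than counting error (ratio 1.01, 0.9703 to 1.05). Fzd10 came next, then Fzd9, then Fzd6 and Fzd2, which did not differ beyond counting error either (1.01, 0.907 to 1.12). Fzd4 and Fzd3 followed, again without a difference beyond counting error (1.08, 0.941 to 1.23), and Fzd8 and Fzd1 were lowest. In E14-Sox2TA/WT cells Fzd7 stood 1.19-fold above Fzd5 (1.15 to 1.23), and Fzd2 moved from below Fzd9 to the place after Fzd10. Fzd6 and Fzd9 could not be ordered there (1.10, 0.967 to 1.26), nor could Fzd8 and Fzd4 (1.14, 0.908 to 1.43). Fzd10 held the third place and Fzd1 the last in both libraries.

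**Figure D2:**
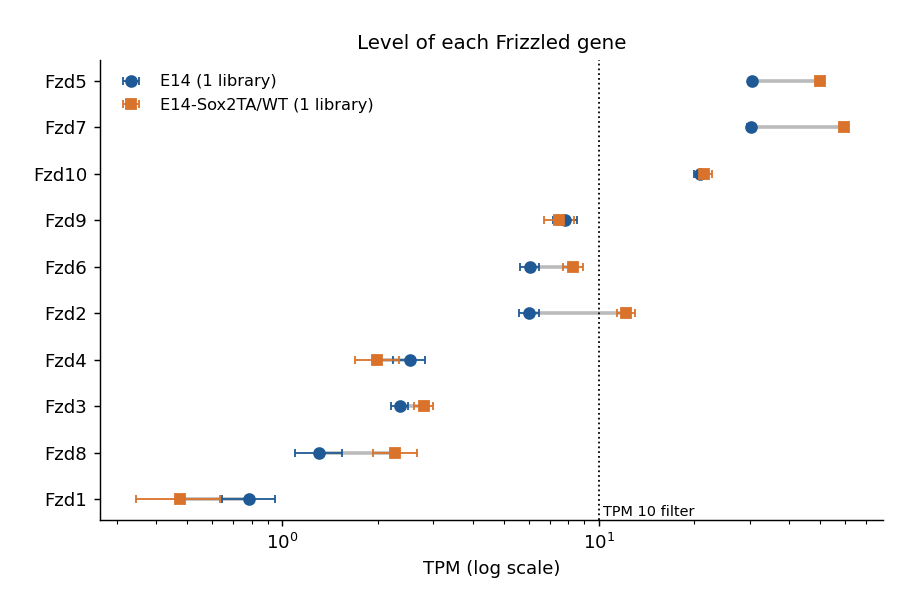
TPM of each Frizzled gene (log axis) in the E14 library (circles) and the E14-Sox2TA/WT library (squares), with 1 library per genotype and bars for 95% counting error. The dotted line marks the TPM filter of 10, which Fzd2 crosses between the libraries, from 6.02 to 12.2.

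Fzd7, the Frizzled most often tied to pluripotent stem cells, had a TPM of 30.3 from 4596 reads in E14 and of 59.4 from 6026 reads in E14-Sox2TA/WT cells. The E14-Sox2TA/WT value was 1.96-fold higher (1.88 to 2.03, log2 ratio 0.97), and Fzd7 moved from rank 4958 to rank 3045 among all genes by TPM. Among the genes past the TPM filter described below, 4.59% had a ratio at least as high. Fzd7 was thus the most abundant Frizzled mRNA in E14-Sox2TA/WT cells.

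Fzd2, a receptor for Wnt5a among other ligands, had a TPM of 6.02 from 689 reads in E14 and of 12.2 from 932 reads in E14-Sox2TA/WT cells. Its ratio was 2.02-fold (1.83 to 2.23, log2 ratio 1.02), so the interval lay on both sides of 2-fold, and 4.05% of filtered genes had a ratio at least as high. Relative to the median of all genes its log2 ratio was 0.97. Fzd2 is on the study's list of genes that Sox2 T258 O-GlcNAcylation may directly repress. The list combined the difference between these libraries with other, separate data. These were a signal of Sox2 binding in the gene region (ChIP-seq) and arrays of cells with and without streptozotocin, which raises O-GlcNAc. Because the difference between these libraries was itself a criterion, the listing is not independent evidence of the direction seen here. The ratios of Fzd2 and Fzd7 differed from each other by less than counting error (Fzd2 ratio over Fzd7 ratio, 1.03, 0.927 to 1.15), and this comparison does not depend on the size given to either library. Removing the trend on GC content and transcript length gave a log2 ratio of 1.21 for Fzd2 and 0.98 for Fzd7.

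Fzd1, the closest paralog of Fzd2 by coding sequence, went the other way. It was the rarest member, with a TPM of 0.785 from 109 reads in E14 and of 0.474 from 44 reads in E14-Sox2TA/WT cells (0.603-fold, 0.415 to 0.864). Its ratio stood at 0.299 of that of Fzd2 (0.203 to 0.434) and at 0.308 of that of Fzd7 (0.211 to 0.442). The subfamily sum followed the abundant genes, at a TPM of 37.1 in E14 and 72.01 in E14-Sox2TA/WT cells (1.94-fold, 1.87 to 2.01).

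Fzd5, a receptor known for its roles in the yolk sac and the eye, had a TPM of 30.6 from 6628 reads in E14 and of 49.8 from 7242 reads in E14-Sox2TA/WT cells. The difference was 1.63-fold (1.58 to 1.69, log2 ratio 0.70), and 9.75% of filtered genes had a ratio at least as high. The Fzd5 ratio was smaller than that of Fzd7 beyond counting error (0.833 of it, 0.792 to 0.877). Fzd8, the closest relative of Fzd5, was far rarer, with a TPM of 1.31 from 138 reads in E14 and of 2.28 from 161 reads in E14-Sox2TA/WT cells (1.75-fold, 1.38 to 2.21). The ratios of Fzd5 and Fzd8 could not be told apart (0.937, 0.739 to 1.19), nor could those of Fzd7 and Fzd8 (1.12, 0.886 to 1.42), and the few Fzd8 reads leave these intervals wide.

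Fzd3 and Fzd6, receptors of planar cell polarity that act in axon guidance and hair patterning, differed modestly. Fzd6 had a TPM of 6.06 from 780 reads in E14 and of 8.29 from 716 reads in E14-Sox2TA/WT cells (1.37-fold, 1.23 to 1.52). Fzd3 had a TPM of 2.35 from 943 reads in E14 and of 2.79 from 752 reads in E14-Sox2TA/WT cells (1.19-fold, 1.08 to 1.31). The direction of Fzd3 depended on the scaling, since its log2 ratio of 0.25 became -0.35 once the trend of ratios on GC content and transcript length over all genes was removed. Fzd6 stayed higher under that setting, at 0.28.

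Within Fzd4, Fzd9 and Fzd10 no member was higher beyond counting error. Fzd10, the most abundant of these, had a TPM of 20.9 from 1968 reads in E14 and of 21.5 from 1359 reads in E14-Sox2TA/WT cells (1.03-fold, 0.961 to 1.10). Fzd9, a receptor expressed in the nervous system and in bone, had a TPM of 7.83 from 521 reads in E14 and of 7.51 from 335 reads in E14-Sox2TA/WT cells (0.959-fold, 0.834 to 1.10). Both intervals include no change and leave out differences of 1.5-fold. The sign of neither ratio is settled, since Fzd10 ran from -0.10 to 0.20 and Fzd9 from -0.20 to 0.23 on the log2 scale over 10 settings. Fzd4, the receptor that also binds Norrin in retinal vessels, had a TPM of 2.53 from 294 reads in E14 and of 1.999 from 156 reads in E14-Sox2TA/WT cells (0.792-fold, 0.648 to 0.964). Fzd4 and Fzd1 were the members lower under every one of the 10 settings. The summed TPM of Fzd4, Fzd9 and Fzd10 was 31.3 in E14 and 31.1 in E14-Sox2TA/WT cells (0.993-fold, 0.936 to 1.05), beside 31.9 and 52.1 for Fzd5 with Fzd8.

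**Figure D3:**
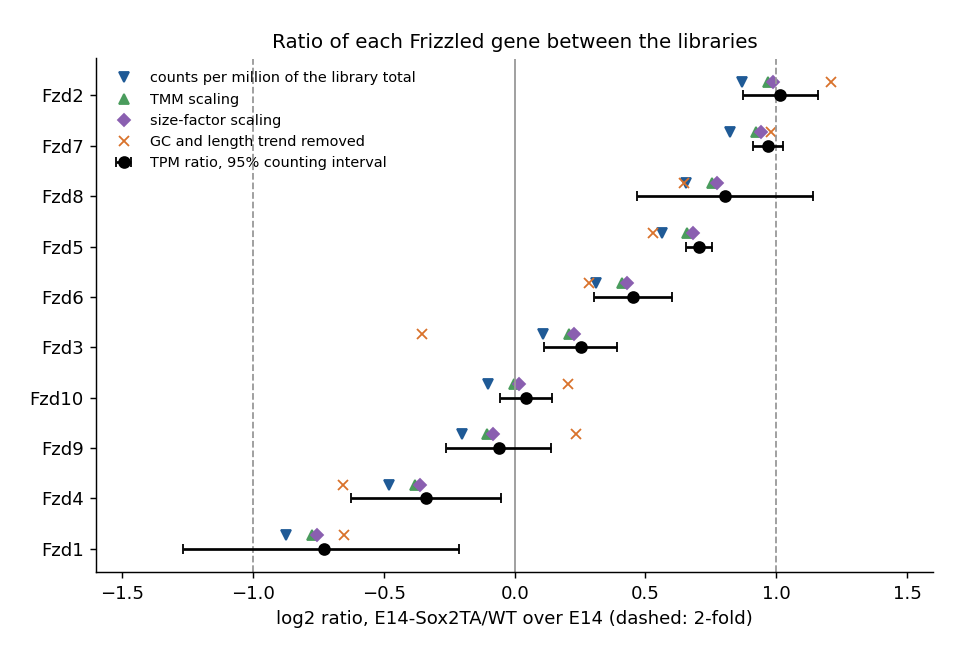
Log2 ratio of each Frizzled gene, E14-Sox2TA/WT over E14, ordered by size, with black points and bars for the TPM ratio and its 95% counting interval and coloured marks for other scalings of the same libraries. Fzd2 and Fzd7 lie at the dashed 2-fold line, Fzd1 and Fzd4 lie below 0, and removing the trend on GC content and length moves Fzd3 to -0.35.

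The study's methods keep genes that reach a TPM of 10 in either library and call differences of more than 2-fold. Under this rule 4 of the 10 members were kept, namely Fzd2, Fzd5, Fzd7 and Fzd10, and Fzd2 was kept only through the library in which it is higher. Past 2-fold was 1 member, Fzd2, against a background of 4.17% of 9094 genes higher, and no member was more than 2-fold lower, against 4.07%. The call of Fzd2 was lost under the library total, TMM, size factors, FPKM, centring and a pseudocount of 1. At 1.5-fold, Fzd2, Fzd5 and Fzd7 were higher, against 14.2% of genes, and none was lower, against 10.5%. Fzd7, at 1.96-fold, lay just inside the 2-fold line, and Fzd2, at 2.02-fold, just past it.

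A rule on counting error alone admits all 10 members, since each had at least 20 reads over both libraries. The interval lay above no change for Fzd2, Fzd3, Fzd5, Fzd6, Fzd7 and Fzd8, which makes 6 of 10, against a background of 40.1% of 15459 genes. It lay below no change for Fzd1 and Fzd4, or 2 of 10, against 36.7%. No member had an interval wholly past 2-fold in either direction, as 4.31% of genes did upward and 5.96% downward. Over the 9 expressed members, which leaves out Fzd1, 7 were higher and 2 lower, against 53.2% and 46.8% of expressed genes. Fzd10 was counted as higher and Fzd9 as lower although their signs are not settled. Fzd3 was counted as higher in this tally and in the 6 of 10. Its direction depended on the scaling, since its log2 ratio was -0.35 after correction for GC content and transcript length. The median log2 ratio of TPM plus 0.1 over the 9 expressed members was 0.45, that of Fzd6, beside 0.04 over all genes.

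The make-up of the Frizzled reads is free of library scaling, because it compares members within a library. Fzd7 took 27.6% of all Frizzled reads in E14 (26.9% to 28.3%) and 34.0% in E14-Sox2TA/WT cells (33.3% to 34.7%). The odds of a Frizzled read belonging to Fzd7 were thus 1.35-fold higher (1.29 to 1.42). Fzd2 went from 4.13% to 5.26% (odds ratio 1.29, 1.16 to 1.43). Fzd5 held the largest share of reads in both libraries, 39.8% and 40.9%, with an odds ratio close to 1 (1.05, 1.002 to 1.09). These gains were matched by smaller shares of Fzd10, from 11.8% to 7.67% (0.620, 0.576 to 0.667), and of Fzd9, from 3.13% to 1.89% (0.597, 0.518 to 0.687). Fzd4 went from 1.76% to 0.880% (0.495, 0.404 to 0.603) and Fzd1 from 0.654% to 0.248% (0.378, 0.260 to 0.542). The shares of Fzd3 and Fzd6 were also smaller, with odds ratios of 0.739 and 0.857, although both genes were higher by TPM.

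Together Fzd5 and Fzd7 made up 67.3% of Frizzled reads in E14 and 74.9% in E14-Sox2TA/WT cells (odds ratio 1.44, 1.38 to 1.51). Per transcript length, as a share of the summed TPM, they made up 56.0% and 65.7%. Fzd7 alone accounted for 27.9% and 35.7% of the summed TPM, and Fzd10 for 19.2% and 13.0%. The share of Fzd4, Fzd9 and Fzd10 as a group went from 16.7% to 10.4% of reads (0.581, 0.546 to 0.620). Of the 45 pairs of members, 36 had ratios that differed from each other beyond counting error, which is the only error these libraries allow, and the same share was not computed for other genes.

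**Figure D4:**
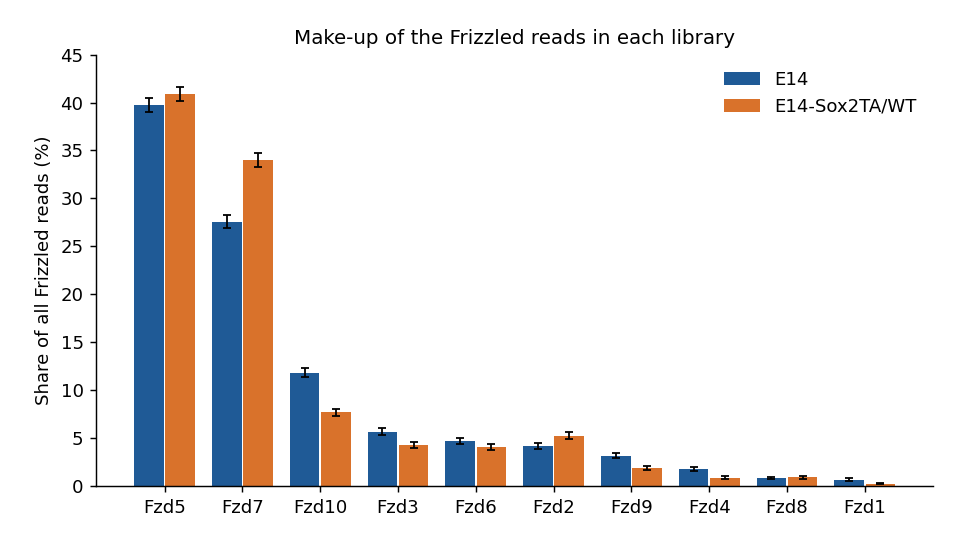
Share of all Frizzled reads (%) taken by each member in the E14 library (blue) and the E14-Sox2TA/WT library (orange), with bars for the exact 95% binomial interval. The Fzd7 bar goes from 27.6% to 34.0% and the Fzd10 bar from 11.8% to 7.67%, whereas the Fzd5 bars stand at 39.8% and 40.9%.

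The genes nearest to Fzd2, Fzd5, Fzd6 and Fzd7 all had lower ratios than these members. Among Fzd7 and the 6 nearest expressed genes on chromosome 1, Fzd7 was the highest, and the others had log2 ratios from -0.28 to 0.55. Fzd5 was also the highest in its neighbourhood, where the other ratios ran from -1.53 to 0.23. The 6 genes nearest to Fzd2 ran from -1.20 to 0.42, again below Fzd2. All 6 genes nearest to Fzd6 were lower, from -0.38 to -0.05, beside a median of -0.20 over 546 expressed genes of chromosome 15. Few genes exceed the ratios of Fzd2, Fzd5 and Fzd7, so a first place among a few neighbours follows largely from the ratio itself. The share of all genes that are the highest in their neighbourhood was not computed. The other members were not the highest in theirs. All 6 neighbours of Fzd3 were higher, from 0.09 to 0.65, and so were all 6 of Fzd8, from 0.20 to 1.46. Fzd1 was lower beside 5 of 6 higher neighbours, and those of Fzd4, Fzd9 and Fzd10 went both ways. In the annotation Fzd5 and Fzd6 each overlap a gene on the opposite strand and Fzd3 overlaps 2 small genes. None of these has a row in the table, and strand handling is not stated, so reads of these loci cannot be split.

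Promoters were read from RefSeq (GRCm38.p6) as the 250 bases before the start of a gene, and 6 members were matched, Fzd1, Fzd4, Fzd5, Fzd7, Fzd9 and Fzd10. RefSeq and GENCODE place some starts differently. The Fzd7 and Fzd1 windows end upstream of the GENCODE positions given above, whereas the Fzd10 window lies inside its gene as GENCODE draws it, and most of the Fzd9 window does. The windows of Fzd7 and Fzd1 are shown because these genes share a subfamily and differ in direction. Capitals mark GGGCGG, the core letters of a GC box, in Fzd7 (chr1:59481897-59482146, plus strand) and CTTTGA, core letters of Tcf and Lef factors, in Fzd1 (chr5:4758217-4758466, minus strand), each read on either strand.
Fzd7: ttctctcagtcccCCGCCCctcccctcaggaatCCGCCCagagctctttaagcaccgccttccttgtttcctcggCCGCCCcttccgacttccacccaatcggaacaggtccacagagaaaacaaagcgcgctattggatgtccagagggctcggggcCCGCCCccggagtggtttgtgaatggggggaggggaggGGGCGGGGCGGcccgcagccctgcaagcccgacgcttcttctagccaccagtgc
Fzd1: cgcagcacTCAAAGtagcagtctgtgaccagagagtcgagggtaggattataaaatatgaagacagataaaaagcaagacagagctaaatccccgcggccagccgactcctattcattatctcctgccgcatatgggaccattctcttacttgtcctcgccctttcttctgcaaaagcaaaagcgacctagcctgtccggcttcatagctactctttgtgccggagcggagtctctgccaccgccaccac
The Fzd7 window held 6 GGGCGG matches, the 2 nearest to the start overlapping, which sit between 237 and 49 bases before the RefSeq start, and no CTTTGA. The Fzd1 window held no GGGCGG and 1 CTTTGA match, on the opposite strand, 242 bases before the RefSeq start. GGGCGG was present in 32.7% of 32851 promoter windows and in 5 of the 6 member windows, and CTTTGA in 13.8% and in 1. CATTGT, 1 spelling of the core letters bound by Sox factors, was present in 10.7% of windows and in no member window. Other spellings of the Sox and of the Tcf and Lef letters were not searched. CTTTGT, which differs from CTTTGA in its last base, can be read in both printed windows, as acaaag in that of Fzd7. The CTTTGA match therefore does not set Fzd1 apart from Fzd7 in letters of this kind. Fzd2 had no window, so Sox core letters may be present in the member promoters. GC content was 65.2% in the Fzd7 window and 51.2% in that of Fzd1, against a median of 52.4%, and 72.8% to 76.4% in the other 4. A match is a description of letters in these windows and says nothing of binding.

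Other genes of the pathway were described from lists arranged by role, with ratios of single genes from TPM alone and list medians from TPM plus 0.1. The highest and lowest ratios of a list were taken over its expressed genes. Wnt ligands were rare, and none of the 19 passed the TPM filter. Of the 9 that were expressed, 6 were higher and 3 lower, with a median log2 ratio of 0.20. Wnt8a, the ligand with the highest TPM, had 4.30 in E14 and 4.96 in E14-Sox2TA/WT cells. Wnt5a, which acts largely outside the β-catenin route, had a TPM of 0.112 from 16 reads in E14 and of 3.51 from 317 reads in E14-Sox2TA/WT cells, a log2 ratio of 4.96 (4.24 to 5.79). Wnt5a counted as expressed only through the library in which it is higher. Of the expressed ligands Wnt6 was the lowest by ratio, at -0.62. Rarer ligands were lower still, such as Wnt3a with 67 reads in E14 and 18 in E14-Sox2TA/WT cells (-1.31), and Wnt8b with 65 and 2. Of the 16 ligands with at least 20 reads over both libraries, the interval lay above no change for 4 and below it for 5. The genes that prepare Wnt for secretion were split. Wls, the carrier that takes Wnt to the surface, had a TPM of 11.2 in E14 and 28.5 in E14-Sox2TA/WT cells (log2 ratio 1.35), whereas Porcn, the acyltransferase that adds the lipid of Wnt, had 26.5 and 14.7 (-0.85).

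Partners of Frizzled at the membrane went both ways. Of the 11 genes of the co-receptor list, 8 were expressed, 5 of them higher and 3 lower, with a median of 0.22. Musk and Ndp had no reads, and Ndp is in the list although it encodes a ligand, Norrin. Ptk7, a pseudokinase that joins Wnt and Frizzled in planar polarity, was the most abundant and, among expressed genes, the highest by ratio, with a TPM of 74.5 in E14 and 123.2 in E14-Sox2TA/WT cells (0.73). Reck, which presents Wnt7 to Frizzled, was the lowest, with 8.33 and 4.84 (-0.78). Ror1, a receptor kinase for Wnt5a too rare to count as expressed, had 16 reads in E14 and 98 in E14-Sox2TA/WT cells, a log2 ratio of 3.19 (2.42 to 4.06). The sign of Lrp5, at 0.13, turned under the library total and FPKM, at -0.02 in both. Smo, the Hedgehog transducer and closest relative of the Frizzled family, had 21.1 and 34.6 (0.71), a ratio like that of Fzd5.

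Genes that set how much Frizzled stays on the surface diverged. Lgr4, a receptor of R-spondins that spares Frizzled from degradation, had a TPM of 26.6 from 4239 reads in E14 and of 69.1 from 7382 reads in E14-Sox2TA/WT cells (log2 ratio 1.38, 1.32 to 1.43). It was the only one of the 11 turnover genes past the TPM filter. Of the expressed R-spondins, Rspo3 was the highest by ratio (4.01, from 9 and 97 reads) and Rspo4 the lowest (-1.599, from 261 and 58 reads). Rspo3 counted as expressed only through the library in which it is higher. Of the 7 expressed turnover genes, 4 were higher and 3 lower, with a median of 0.38.

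Secreted inhibitors were the list with a negative median. Of the 10 expressed, 4 were higher and 6 lower, and the median log2 ratio of -0.09 became 0.11 with the GC and length trend removed and 0.27 over the 4 whose TPM averaged 10 or more. Dkk1, which blocks Lrp5 and Lrp6, had a TPM of 2.18 from 154 reads in E14 and of 0.466 from 23 reads in E14-Sox2TA/WT cells (-2.23). Sfrp1, a decoy with a Frizzled-type cysteine-rich domain and the most abundant gene of the list, had 27.7 and 38.1 (0.46). Notum, the enzyme that strips the lipid from Wnt, was the highest by ratio (0.84), and Dkk2, Dkk4 and Cer1 had no reads.

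Downstream of the receptors, the 10 cytoplasmic genes lay within 2-fold, with 7 higher and 3 lower and a median of 0.25. Ctnnb1, which encodes β-catenin, had a TPM of 416.4 in E14 and 470.9 in E14-Sox2TA/WT cells (0.18), Apc of the destruction complex was the highest (0.75), and Gsk3a was the lowest (-0.47). Of the 8 Tcf and Lef complex genes, 7 were higher and 1 lower, with a median of 0.44. Lef1 had a TPM of 0.288 from 33 reads in E14 and of 5.26 from 401 reads in E14-Sox2TA/WT cells (4.19), and Tcf7l1, largely a repressor of Wnt targets in ESCs, had 7.12 and 25.0 (1.81). Lef1 counted as expressed, and Tcf7l1 passed the TPM filter, only through the library in which each is higher. Tcf7, the most abundant factor, differed little (0.12), and Pygo1 was the lowest (-0.28).

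Planar polarity genes had a median of 0.47, with 8 of 11 higher and 3 lower. Prickle1, a cytoplasmic core polarity protein, had a TPM of 2.22 in E14 and 9.68 in E14-Sox2TA/WT cells (2.12). Ankrd6, a Dishevelled-binding protein, had 8.57 and 18.5 (1.11). It was past the filter, though only through the library in which it is higher, and past 2-fold, a call lost under the library total and FPKM (0.97 in both). Vangl2, the most abundant, had 16.4 and 22.8 (0.47), and Prickle3 was the lowest (-0.48). The median of 8 of the 9 pathway lists, counting Smo as a list, lay above that of all genes. Smo is 1 gene and the Wnt secretion list is 2 genes of opposite direction. The share to be expected of lists this small was not computed.

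**Figure D5:**
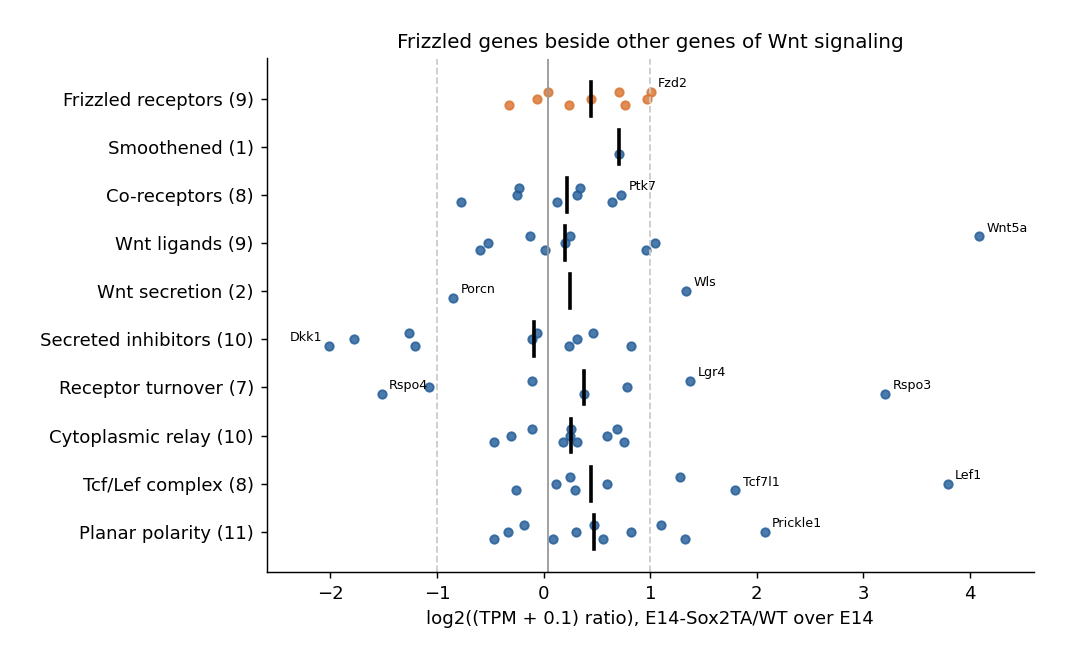
Log2 ratio of TPM plus 0.1, E14-Sox2TA/WT over E14, for each expressed gene (mean TPM of 1 or more) in the Frizzled family (orange) and in 9 lists of other Wnt pathway genes (blue), with the number of genes in parentheses. Black bars are list medians, the grey line is the median of all genes (0.04) and dashed lines mark 2-fold, so that Frizzled genes lie between -0.32 and 1.003 while Wnt5a, Lef1 and Rspo3 lie far to the right. Those 3 genes had a TPM below 1 in E14 and are included only through the E14-Sox2TA/WT library, in which they are higher.

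Markers of other cell types also differed between the libraries, and their part in the Frizzled differences was not tested. Of 9 mesendoderm markers, 5 were expressed, 4 of them higher and 1 lower. Among those too rare to count as expressed, Gsc (16 and 0 reads), Foxa2 (43 and 17) and Mesp1 (22 and 10) were lower. Evx1 (2 and 94 reads) was higher, and the interval of Mesp1 included no change. T, Mixl1 and Cdx2 had a TPM below 1 in E14 and counted as expressed only through the E14-Sox2TA/WT library. T, or Brachyury, had a TPM of 0.954 in E14 and 14.03 in E14-Sox2TA/WT cells, Cdx2 had 0.474 and 12.2, and Cdx1 had 30.2 and 6.66. The summed level of the list was 36.9 and 45.7. Of 7 neural markers, 4 were higher and 1 lower among 5 expressed. Nes had a TPM of 6.67 in E14 and 36.2 in E14-Sox2TA/WT cells, and Sox1 had 3.80 and 10.7. Tubb3, the most abundant by far, was the lower gene, with 77.3 and 65.8 (log2 ratio -0.23). The summed TPM of the neural list was 91.2 and 120.4. All 7 primitive endoderm markers were lower, with a summed TPM of 53.6 in E14 and 19.1 in E14-Sox2TA/WT cells. Fibroblast markers, which would mark feeder cells, summed to 49.99 and 19.8, most of it Thy1, with a TPM of 40.1 and 11.4. Col3a1 (0.08 and 1.28) and Col1a2 (0.259 and 0.985) were higher in E14-Sox2TA/WT cells, and the defining genes Lum, Dcn and Postn had no reads in either library.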

How the data were processed

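Polyadenylated RNA of 1 E14 library and 1 E14-Sox2TA/WT library was sequenced on an Illumina NovaSeq instrument. The submitters' processing notes name bcl2fastq 2.20.0, Trimmomatic, HISAT2 2.1.0, StringTie 2.1.3b and the builds mm10 and hg19 without their roles, and the gene table is for mm10. Strand handling and read length are not given in the sources used here. The authors deposited read counts as whole numbers, not normalized. The FPKM values deposited by the authors are scaled to length and fragments, and the deposited TPM values sum to 993247 and 994155. Library totals of 60263536 and 44609228 reads put the floor of 3 reads at 0.0498 CPM and 0.0673 CPM.

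The 10 Frizzled genes were matched by symbol, and all were named in full. TPM ratios, E14-Sox2TA/WT over E14, were taken without a pseudocount, on genes that reached a TPM of 10 in either library, with a 2-fold threshold. With 1 library per genotype no p-value is given. Exact Clopper-Pearson 95% intervals (scipy 1.17.1) were placed on the TPM scale, and shares carry the same interval and exact conditional odds ratios. They cover counting error only, since 1 library per genotype gives no measure of variation between libraries. PCR copies are not independent molecules, so the intervals may be too narrow even for counting error. The interval was tried on simulated counts that vary by counting error alone, which cannot show how it performs under other variation between libraries. List medians used log2 of TPM plus 0.1 over genes whose mean TPM was 1 or more. From each pathway list the text names at least the gene with the highest TPM, those with the highest and lowest ratio, and those past the filter and 2-fold. Of the marker lists only a selection of genes is named. Members and lists were chosen with earlier results of these data known. Alternatives were other filters, pseudocounts and thresholds, scaling to the library total, by TMM (edgeR 4.0.16) or by size factors (DESeq2 1.42.0), FPKM, centring, leaving out the 10 genes with most reads, and removal of the trend on GC content and transcript length in 20 bins each. Transcripts for the trend were found for 98.1% of genes. Coding sequences from GENCODE were aligned globally (Biopython 1.88), in place of the protein comparison planned, and promoters came from RefSeq (GRCm38.p6).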

Additional observations from a re-analysis of the deposited data

How the results depend on the processing

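The count of Frizzled genes more than 2-fold higher, 1 (Fzd2) as reported, was 0 with a TPM of at least 20, a 3-fold threshold, an interval wholly past 2-fold, scaling to the library total, TMM, size factors, FPKM, centring on the median or a pseudocount of 1, and 3 at 1.5-fold. It was 1 with a TPM of at least 1 or 5, at least 20 reads, without the top 10 genes, with the trend on GC content and length removed and with a pseudocount of 0.1. The count more than 2-fold lower was 0 under all of these. The median log2 ratio, 0.45, was 0.28 with the trend removed and 0.70 with a mean TPM of at least 10, which keeps only the abundant members. The log2 ratio of the summed TPM, 0.61, was 0.52 scaled to the library total, 0.47 from FPKM and 0.57 centred. The log2 ratio of Fzd3, 0.25, was -0.35 with the trend removed, and the cause was not tested. Of 90 alternative values for single members, 74 moved by less than counting error, 15 moved by more and 1, that of Fzd3, turned from an interval that left out 0. In all 5 changed sign, the other 4 being Fzd9 with the trend removed (0.23) and Fzd10 scaled to the library total (-0.10), by TMM (-0.0016) and from FPKM (-0.10), both genes with intervals that include 0. Of the 9 pathway lists, 8 had a median above that of all genes centred or from FPKM and 9 with the trend removed, and with a mean TPM of at least 10, which no Wnt ligand reached, all 8 remaining lists did. Of those 8 lists, receptor turnover and Smo then held 1 gene each and Wnt secretion held 2. No paired analysis was possible because each genotype had 1 library, which also prevents leaving a library out. Depth limits Fzd1, Fzd4 and Fzd8, with 44 to 294 reads a library.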
